A study of Homo sapiens with 6 samples.

Results

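The genes described here are 35 members of the YAP and TGF-beta pathways, both the signalling components and the genes these pathways are known to switch on. They were chosen by name, as all probe sets whose only gene symbol in the platform annotation is 1 of the 35, which gave 106 probe sets of the 41091 single-symbol probe sets on the array, and 35 genes of 19775. Transcripts were measured in 76N cells, normal mammary epithelial cells of human origin kept as a line in DFCI-1 medium, after transfection with a control siRNA (3 cultures) or with an siRNA against Ecd (3 cultures), with 1 Affymetrix array per culture. All 6 cultures were of the same line and all were transfected; the labels call the 3 in each group biological replicates, and neither the siRNA sequence nor its dose or the harvest time is given in the sources used here. ECD, the transcript the siRNA targets, which encodes the human counterpart of Drosophila ecdysoneless, had a mean signal of 1031.7 ± 38.9 with control siRNA and 577.1 ± 30.4 with Ecd siRNA (SD, n = 3 each; log2 change -0.82, SE 0.10, limma adjusted p = 0.000177).

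YAP1 and its paralog WWTR1, also called TAZ, are coactivators without DNA-binding domains of their own. They act through the TEAD transcription factors and are held in the cytoplasm when the Hippo kinases LATS1 and LATS2 phosphorylate them; soft or crowded surroundings keep them out of the nucleus and spreading and tension let them in. TGF-beta ligands are secreted in a latent form bound to LTBP proteins of the matrix; once released they bind TGFBR2 and TGFBR1, which phosphorylate SMAD2 and SMAD3, and these enter the nucleus with SMAD4. In epithelial cells, breast included, TGF-beta is known for growth arrest and for inducing matrix and cytoskeletal genes, and both pathways share targets such as CCN2.

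Signals are MAS5 values on a linear scale. Changes are on the log2(signal + 16) scale, Ecd siRNA minus control siRNA, which understates the change of dim transcripts. Each gene was read by its brightest single-symbol probe set and tested if that probe set's mean signal over the 6 arrays reached 90.2, the lower edge of the upper 60% of all probe sets; 34 of the 35 members did, ANKRD1 being the exception. The words rose and fell are used where limma's p, adjusted by the Benjamini-Hochberg method over the 14614 genes tested, was under 0.05. The labelled cell type was checked against mammary epithelial markers: KRT5 (16435 in the control mean), KRT14 (21386) and EPCAM (2053) were all bright, while KRT19 (29.5) was below the filter. RNA quality readings overlapped between the groups, with 3′ to 5′ signal ratios of the ACTB control probe sets of 1.07 to 1.11 in control arrays and 1.07 to 1.16 in Ecd siRNA arrays. Correlations of log2 signals between arrays over the tested genes were 0.976 to 0.98 within groups and 0.95 to 0.959 between them.

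Of the 21 TGF-beta members tested, 7 rose and 0 fell after Ecd siRNA by limma (33.3% called), led by LTBP1, LTBP3, TPM1, PMEPA1 and TGFB2. Of the 13 YAP members tested, 4 fell and 1 rose (38.5% called): CCN2 rose, while CCN1, AXL, AJUBA and TEAD4 fell. Of all genes tested 21.2% were called, 10.1% higher and 11% lower, and of those with a mean signal of at least 1000, 34.1%. The shares called in both pathways are thus near that of bright genes, and the difference in direction between the pathways was not tested. In their brightest probe sets YAP1, TEAD1, TGFBR1, TGFBR2, SMAD2 and SMAD4 had log2 changes of -0.08 to 0.08 and did not pass the threshold. WWTR1 and SMAD3 were lower there without overlap of the groups (-0.19 and -0.22), also without passing. Of their other probe sets, 1 of WWTR1 and 2 of SMAD3 fell, and the remaining WWTR1 probe set was at 0.075 without passing. Other probe sets of TEAD1, SMAD2 and SMAD4 reached 0.27, 0.30 and 0.26 and did not pass. On bulk RNA such as this, fewer cells of a type and less RNA per cell cannot be told apart.

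In all, 12 of the 34 tested members passed the threshold, 8 higher and 4 lower, which is 35.3% of them. Most members are bright: 29 had a mean signal of at least 1000, and of these 11 were called, or 37.9%, near the 34.1% of all genes at that level. In 15 of the 34 tested members the 3 control and the 3 Ecd siRNA arrays did not overlap, against 5332 of the 14614 genes tested (36.5%). No such share was computed for bright genes. The median log2 change was 0.11 over the members and 0.01 over all genes tested. By group, the 8 YAP components had a median of -0.04 with 2 falls, the 5 tested YAP targets -0.15 with 1 rise and 2 falls, the 14 TGF-beta components 0.06 with 4 rises, and the 7 TGF-beta targets 0.28 with 3 rises. Components passed in 6 of 22 cases (27.3%) and targets in 6 of 12 (50%), beside 21.2% of all genes tested and 34.1% of bright ones. The targets are few, and the difference between components and targets was not tested.

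**Figure D1:**
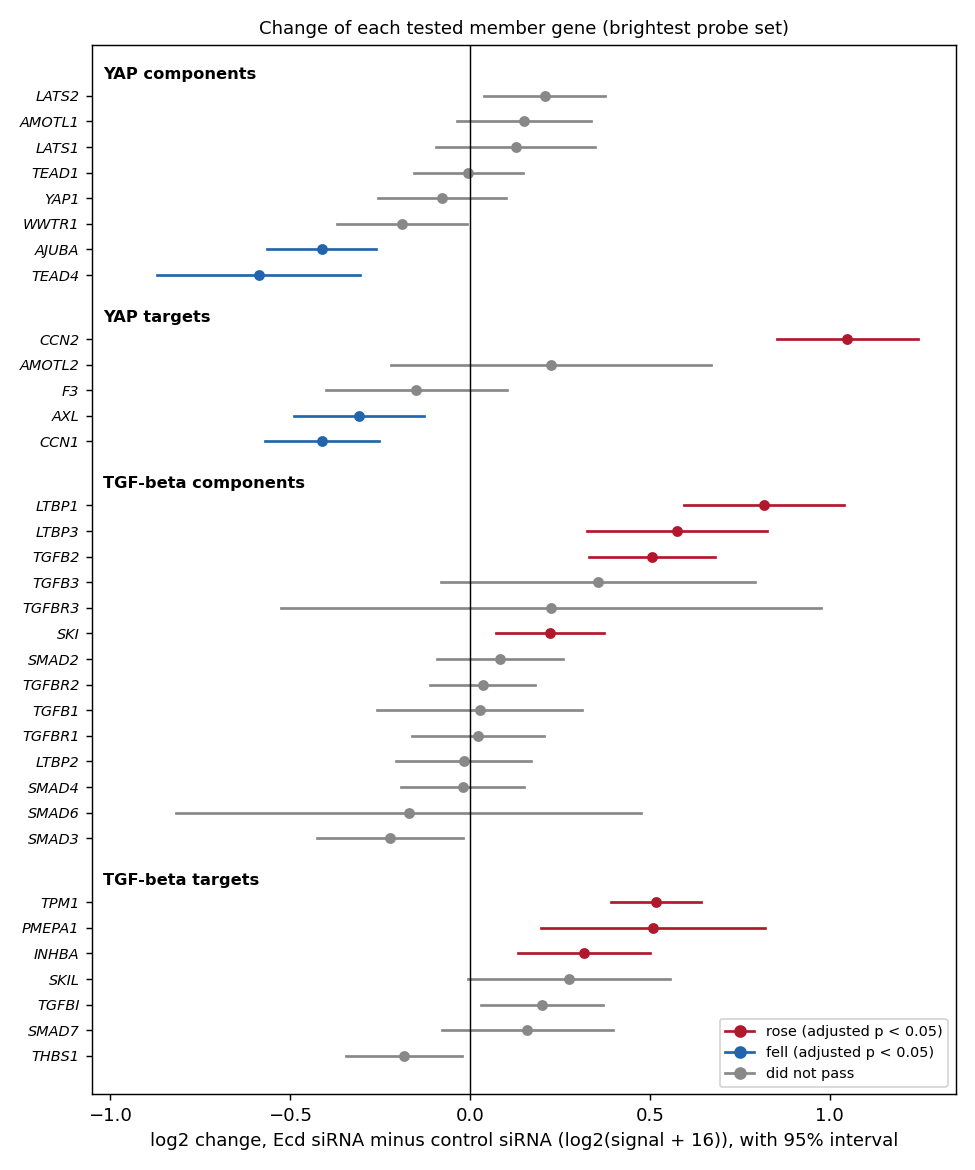
Log2 change (Ecd siRNA minus control siRNA, log2(signal + 16)) of the 34 tested members with its 95% interval from limma, n = 3 arrays per group, sorted within 4 groups; red rose, blue fell, grey did not pass. CCN2 at 1.05 lies farthest to the right and TEAD4 at -0.59 farthest to the left, and the coloured TGF-beta members all lie right of 0.

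CCN2 encodes connective tissue growth factor, a matricellular protein and the textbook readout of YAP activity. Its signals were 1259.2, 1281.4 and 1467.3 with control siRNA and 2693.5, 2973.8 and 2667.3 after Ecd siRNA. Every Ecd siRNA array lay far above every control array. The ratio of the means was 2.08 and the log2 change 1.05 (SE 0.09, limma adjusted p = 1.91e-05), the largest change of any member's brightest probe set. CCN2 has 1 single-symbol probe set, so there is no second reading on the array.

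CCN1, its closest relative in this set, encodes CYR61, likewise a matricellular protein and YAP target, and went the other way. It read 4004.9, 4461.1 and 4540.9 with control siRNA and 3298.6, 3255.7 and 3201.1 after Ecd siRNA, with no overlap, a log2 change of -0.41 (SE 0.07, adjusted p = 0.0023). Its second probe set fell too (-0.65, SE 0.12, adjusted p = 0.00404 over all probe sets). The pair of CCN genes therefore moved apart on the same 6 arrays, and both calls held in all 15 alternative settings.

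AXL, a receptor tyrosine kinase gene, had signals of 2535.8, 2567.7 and 2282.3 with control siRNA and 1950.8, 2109.2 and 1896.2 after Ecd siRNA. The groups did not overlap and the gene fell by 0.31 on the log2 scale (SE 0.08, adjusted p = 0.022). Its second probe set was at -0.38 without passing (adjusted p = 0.12). AXL did not pass without control replicate 1, control replicate 2 or Ecd siRNA replicate 3 (adjusted p = 0.0935, 0.0779 and 0.0697; 0.0173 to 0.0935 over all alternatives).

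In AMOTL2 and F3, 1 array decided the reading. AMOTL2 encodes an angiomotin-like scaffold that binds YAP and is itself a YAP target; it read 1672.4, 1844.4 and 1721.2 with control siRNA but 1820.8, 1535.4 and 3050.2 after Ecd siRNA. Ecd siRNA replicate 3 stood well above the other two, and without it the change of 0.23 (adjusted p = 0.496) turned to -0.06 (adjusted p = 0.749; 0.154 to 0.749 over all alternatives). F3, the gene of tissue factor, which starts coagulation, read 12408.1, 12492.7 and 11233.6 against 9828.5, 9697.5 and 13394.2. Again Ecd siRNA replicate 3 was the highest of all, while the other two lay below every control array. F3 was at -0.15 (adjusted p = 0.418) and, without that array, at -0.30 with an adjusted p of 0.0161 (0.0161 to 0.771 over all alternatives).

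ANKRD1 encodes a nuclear ankyrin-repeat protein of the muscle sarcomere and is widely used as a YAP readout. Here it was dim, at 52.1, 22.7 and 43.8 with control siRNA and 4.0, 3.8 and 24.6 after Ecd siRNA. These values lie below the filter and overlap, and no test was made.

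**Figure D2:**
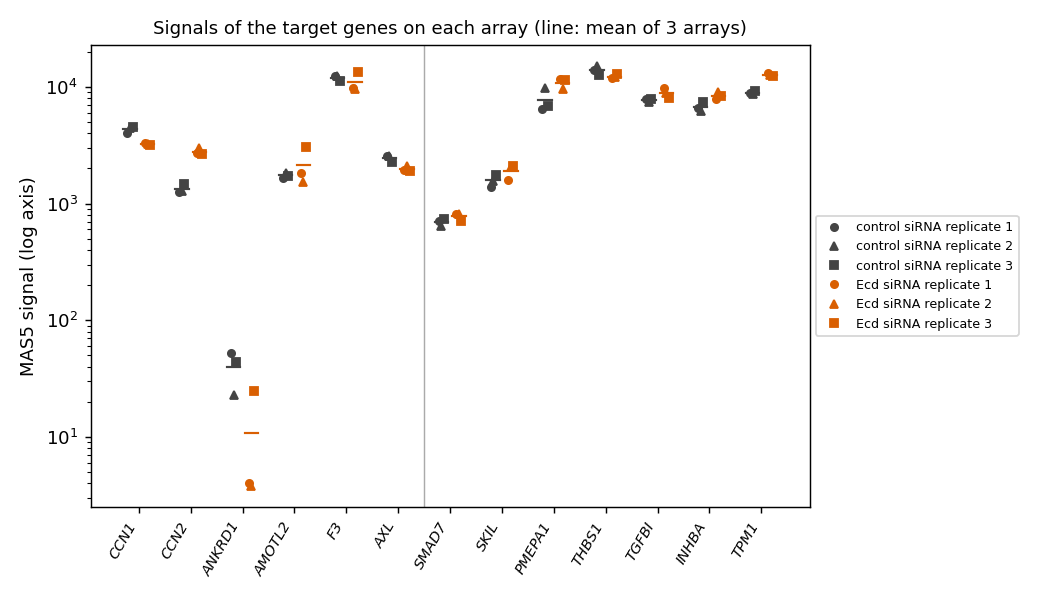
MAS5 signal (log axis) of each target gene on each array, YAP targets left of the line and TGF-beta targets right of it, with short bars for the mean of 3 arrays; signals of different genes are not on a common scale. Of the YAP targets, CCN2 separates upward, CCN1 and AXL downward, and Ecd siRNA replicate 3 (square) stands apart in AMOTL2 and F3. Of the TGF-beta targets, TPM1, INHBA and TGFBI separate upward.

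CCN2 and AXL are both known as TEAD-driven genes, and here 1 rose and the other fell. The starts of the members were searched for the TEAD core letters. RefSeq promoter windows (GRCh38.p14), here the 250 bases before each listed start, were found for 31 of the 35 members, in 58 windows. TEAD1, TEAD4, CCN1 and SKI had no entry. The 4 windows below belong to the 4 called members whose window holds the letters GGAATG or, on the other strand, CATTCC; all are written 5′ to 3′ on the gene's strand. CCN2 (chr6:131951373-131951622, minus strand) and TGFB2 (chr1:218345086-218345335, plus strand) rose, and AJUBA (chr14:22976843-22977092, minus strand, the second listed start) and AXL (chr19:41226505-41226754, plus strand, the second listed start) fell. Capitals mark TEAD core letters and the SMAD box CAGACA or TGTCTG.
CCN2: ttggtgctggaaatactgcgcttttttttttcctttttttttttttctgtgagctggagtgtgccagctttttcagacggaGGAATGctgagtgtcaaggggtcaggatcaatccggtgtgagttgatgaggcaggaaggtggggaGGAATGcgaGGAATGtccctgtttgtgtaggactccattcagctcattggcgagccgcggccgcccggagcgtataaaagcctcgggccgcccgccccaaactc
TGFB2: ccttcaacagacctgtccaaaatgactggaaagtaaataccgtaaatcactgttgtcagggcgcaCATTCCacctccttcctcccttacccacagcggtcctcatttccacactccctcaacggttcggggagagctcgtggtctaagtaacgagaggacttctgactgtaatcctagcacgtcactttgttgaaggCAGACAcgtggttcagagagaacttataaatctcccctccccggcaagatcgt
AJUBA: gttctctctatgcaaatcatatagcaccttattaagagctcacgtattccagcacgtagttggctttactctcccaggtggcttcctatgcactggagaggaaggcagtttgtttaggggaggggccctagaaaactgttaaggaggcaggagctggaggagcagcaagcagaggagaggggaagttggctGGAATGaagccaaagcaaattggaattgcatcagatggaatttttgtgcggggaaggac
AXL: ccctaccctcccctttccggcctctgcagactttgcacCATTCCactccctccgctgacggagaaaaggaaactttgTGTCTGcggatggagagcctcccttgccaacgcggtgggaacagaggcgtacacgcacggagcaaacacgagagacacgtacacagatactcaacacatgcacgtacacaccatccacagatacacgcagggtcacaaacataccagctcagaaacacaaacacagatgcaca

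The CCN2 window holds the TEAD core 3 times, at 169, 104 and 95 bases before the start (first base of each match). It holds neither CAGACA nor TGTCTG. Shorter SMAD letters were not searched, and the letters cagac stand shortly before its first TEAD core, so a SMAD site there is not excluded. TGFB2 holds the TEAD core once, on the other strand, beside 1 SMAD box. This AXL window holds both once, while the window of the other listed AXL start holds neither. Of these 2 patterns this AJUBA window holds the TEAD core alone. Over all listed starts, 9 of the 31 matched members had a window with the TEAD core (15.5% of their windows, against 11.9% of 35116 windows of the same length) and 11 had the SMAD box (22.4% against 13.6%). Some members, such as TGFBR1 and SMAD3, have several windows, and some windows overlap. The window shares therefore weigh such genes more, and no share over all genes was computed. The SMAD palindrome GTCTAGAC was in 1 member window, that of SMAD6, and in 0.182% of all windows, and the AP-1 letters TGANTCA were in 6.9% of member windows against 6.57%. ANKRD1, which was too dim to test, had 2 TEAD cores. Both strands were searched, the 4 patterns were counted separately, and a match is a stretch of letters, not a measured binding site.

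Of the 8 YAP components, AJUBA and TEAD4 fell. Of the coactivators, YAP1 was close to level and WWTR1 was lower in part of its probe sets. YAP1 read 6074.3, 6078.9 and 6892.6 with control siRNA and 5615.9, 5865 and 6575 after Ecd siRNA, overlapping, at a log2 change of -0.08 (95% interval -0.26 to 0.10, adjusted p = 0.573). Its other probe sets were at 0.01 and -0.11. TEAD1, a TEAD factor, was at -0.004 (95% interval -0.15 to 0.15).

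WWTR1 gave 3 different readings. The brightest probe set had 2111.3, 2000.6 and 2275.5 with control siRNA and 1772.8, 1933.8 and 1887.2 after Ecd siRNA, without overlap but not past the threshold (-0.19, SE 0.08, adjusted p = 0.134). The second probe set fell, from 1273.1, 1095.3 and 1147.7 to 880.2, 800.2 and 764.4 (-0.51, SE 0.10, adjusted p = 0.00677 over all probe sets), and the third was at 0.07 (adjusted p = 0.73). The deposited values do not say which part of the transcript each reads.

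TEAD4 encodes another TEAD factor. Its brightest probe set read 437.4, 491.5 and 418.6 with control siRNA and 285.2, 290.7 and 303.3 after Ecd siRNA, a clean separation with a log2 change of -0.59 (SE 0.13, adjusted p = 0.00796). The other probe set fell much further, from 374.6, 401.4 and 366.8 to 82.2, 92.6 and 93, a ratio of mean signals of 4.27 (control over Ecd siRNA) and a log2 change of -1.92 (SE 0.17, adjusted p = 6e-05 over all probe sets). Both readings were lower on all 3 Ecd siRNA arrays, and they disagreed on the size. TEAD4 fell in all 15 alternative settings (-1.25 to -0.52).

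AJUBA encodes a LIM-domain scaffold that binds and restrains LATS kinases, and it is itself often listed as a YAP target. It read 4206.8, 4100.7 and 4326.3 with control siRNA and 3039.4, 3129.3 and 3316.4 after Ecd siRNA. The groups were well apart, with a log2 change of -0.41 (SE 0.07, adjusted p = 0.00164). Of its 4 probe sets 3 fell (-0.41, -0.44 and -0.47) and the dimmest was at -0.23 without passing.

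The kinases that hold YAP back did not pass. LATS2, which YAP also induces, read 1601.9, 1690.5 and 1666.8 against 1930.5, 1968.5 and 1836.3, higher on every Ecd siRNA array by a small margin (0.21, SE 0.07, adjusted p = 0.0794), but its other tested probe sets were at 0.01 and -0.21. LATS1 was at 0.13 (adjusted p = 0.433). AMOTL1, a scaffold that keeps YAP at junctions, was at 0.15 in its brightest probe set (adjusted p = 0.253) and at -0.03, -0.22 and -0.25 in the other 3.

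**Figure D3:**
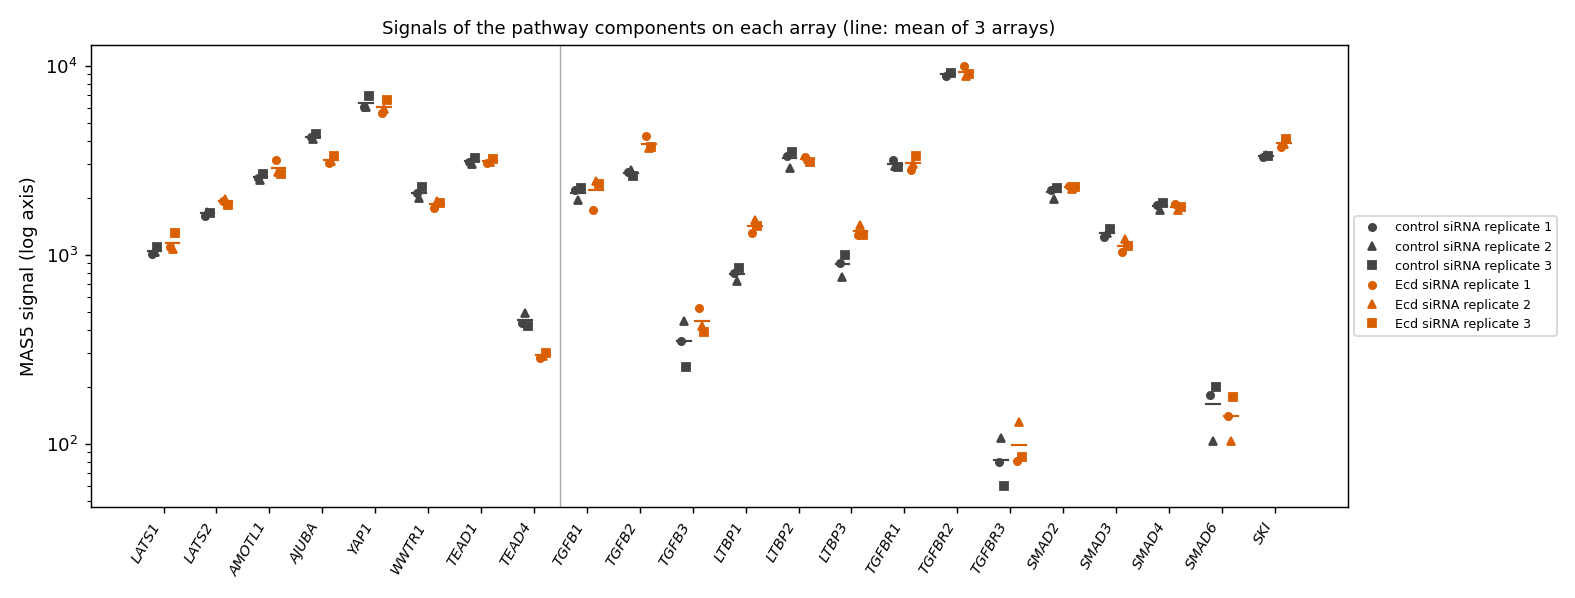
MAS5 signal (log axis) of each pathway component on each array, YAP components left of the line and TGF-beta components right of it, with short bars for the mean of 3 arrays; signals of different genes are not on a common scale. AJUBA and TEAD4 separate downward, TGFB2, LTBP1 and LTBP3 upward, and the receptors and SMAD2 and SMAD4 overlap. By smaller changes, WWTR1 and SMAD3 also separate downward and LATS2 and SKI upward.

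Of the 14 TGF-beta components, TGFB2, LTBP1, LTBP3 and SKI rose. The other 10 did not pass in their brightest probe sets, though other probe sets of SMAD3 fell and 1 of SMAD6 rose. TGFB2, 1 of the 3 ligand genes, read 2724.4, 2805 and 2604.6 with control siRNA and 4232.6, 3658.7 and 3700.3 after Ecd siRNA. All Ecd siRNA arrays were higher, with a ratio of means of 1.43 and a log2 change of 0.51 (SE 0.08, adjusted p = 0.00116). All 5 of its probe sets were higher (0.19 to 0.51) and 2 of them rose. TGFB1 overlapped fully in its brightest probe set (0.03, adjusted p = 0.917), and TGFB3 was at 0.36 with overlapping arrays (adjusted p = 0.248). TGFB1's second probe set, under the filter, read 83.9, 97 and 85.5 against 43.3, 18.1 and 77.4.

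LTBP1, which tethers latent TGF-beta to the matrix, had the second largest rise among the members' brightest probe sets. It read 801.6, 726.5 and 852.4 with control siRNA and 1295.3, 1519.5 and 1415.7 after Ecd siRNA, a ratio of means of 1.78 and a log2 change of 0.82 (SE 0.10, adjusted p = 0.000263). Its dimmer probe set was at 0.77 and did not pass (adjusted p = 0.206). LTBP3, another latency protein, read 906.4, 763.9 and 995.4 against 1272.3, 1435.3 and 1273.8, without overlap (0.58, SE 0.11, adjusted p = 0.0044). That rise rests on 1 probe set: a second one was at -0.07 (adjusted p = 0.813). With the mean of its 3 probe sets, 1 of them under the filter, LTBP3 was at -0.09 (adjusted p = 0.737, and 0.00311 to 0.737 over all alternatives). LTBP2, a related matrix protein that does not carry latent TGF-beta, was at -0.02 (adjusted p = 0.925).

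Of the receptors, TGFBR2 and TGFBR1 were close to level. TGFBR2, the ligand-binding kinase, read 8818.1, 9178.9 and 9093.7 against 9998.1, 8799.7 and 9009 (0.04, 95% interval -0.11 to 0.18). TGFBR1, the kinase that phosphorylates SMADs, was at 0.02 (95% interval -0.16 to 0.20), so for both a change as large as that of TGFB2 lies outside the interval. TGFBR3, the coreceptor betaglycan, was close to the filter at 59.4 to 129.4 over the 6 arrays, and its interval of -0.52 to 0.97 leaves its change undetermined.

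Of the SMADs, SMAD3 was lower in all its probe sets and passed in some, SMAD6 had disagreeing probe sets, and SMAD2 and SMAD4 did not pass in any. SMAD2 was at 0.08 (adjusted p = 0.528) with all 4 tested probe sets between 0.08 and 0.30, and SMAD4, the common partner, was at -0.02 (adjusted p = 0.896). SMAD3 read 1243, 1297 and 1373.7 with control siRNA and 1035, 1203.5 and 1111.5 after Ecd siRNA in its brightest probe set, lower without overlap but not past the threshold (-0.22, SE 0.09, adjusted p = 0.118). A second probe set fell, from 1123.5, 1282.6 and 1211 to 726.4, 894.1 and 779.3 (-0.59, SE 0.11, adjusted p = 0.00461 over all probe sets), and so did another (-0.66, adjusted p = 0.0482). All 4 SMAD3 probe sets were below 0, the opposite side from the ligand TGFB2.

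SMAD6, an inhibitory SMAD best known downstream of BMP, was dim and its probe sets disagreed. The brightest, with a mean signal of 150.7 over the 6 arrays, was at -0.17 (adjusted p = 0.748). Another, almost as bright at 149.1, rose from 98.1, 107.3 and 81.5 to 216, 202 and 189.9 (0.97, SE 0.21, adjusted p = 0.0116 over all probe sets). SKI, a corepressor of SMAD complexes, read 3288.8, 3380.6 and 3307.2 against 3721, 3849.4 and 4082.2, a small rise without overlap (0.22, SE 0.07, adjusted p = 0.0398 over genes). Over all probe sets the same probe set did not pass (adjusted p = 0.0521). Its 2 dimmer probe sets lay on opposite sides of 0, at 0.27 (adjusted p = 0.341) and -0.41 (adjusted p = 0.306). The SKI call was lost in 7 of 15 alternatives (0.0326 to 0.885): with arrays centred on the median, with the mean of its probe sets, and on leaving out any 1 control replicate, Ecd siRNA replicate 2 or Ecd siRNA replicate 3.

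The TGF-beta targets that rose encode secreted, membrane and cytoskeletal proteins. TPM1, the tropomyosin 1 gene, read 8877.4, 8645.8 and 9160.1 with control siRNA and 13110.7, 12568.8 and 12513.4 after Ecd siRNA. The spread within each group was small beside the gap, with a ratio of means of 1.43 and a log2 change of 0.52 (SE 0.06, adjusted p = 0.000117). Of its 6 probe sets 3 rose (0.46 to 0.66) and 1 dim one was at -0.29 without passing; the 3 that rose carry _s or _x names, and the brightest probe set without such a name, which was dim, was at 0.38 (adjusted p = 0.26; 7.81e-05 to 0.26 over all alternatives).

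INHBA encodes the activin A subunit, a ligand that signals through the same SMAD2 and SMAD3. It read 6587.7, 6195.7 and 7471 against 7897.4, 9017.7 and 8294, without overlap (0.32, SE 0.08, adjusted p = 0.0199). All 3 of its probe sets rose, the dimmest the most, from 562.2, 603.2 and 614.1 to 830.2, 911 and 866.2 (0.54, adjusted p = 0.00466 over all probe sets). The call on the brightest was lost without control replicate 1, control replicate 2 or Ecd siRNA replicate 2 (adjusted p = 0.0781, 0.0753 and 0.0818; 0.00534 to 0.0818 over all alternatives).

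PMEPA1, a feedback inhibitor that sequesters receptor SMADs, read 6529.9, 9853.3 and 6888.1 with control siRNA and 11674.1, 9603.6 and 11427.1 after Ecd siRNA. Control replicate 2 lay above Ecd siRNA replicate 2, so the groups overlapped, and the gene passed at 0.51 (SE 0.14, adjusted p = 0.0263). That call was lost without the filter on low signals, and without any 1 array other than control replicate 2 and Ecd siRNA replicate 2 (0.000796 to 0.106 over all alternatives). Its second probe set had no such overlap, going from 7286.4, 8141.2 and 7964.7 to 11450.6, 10481.4 and 10422 (0.47, SE 0.07, adjusted p = 0.00131 over all probe sets), and the third rose too (0.56).

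The other feedback genes were higher without passing. SMAD7, the inhibitory SMAD induced by TGF-beta, was at 0.16 (SE 0.11, adjusted p = 0.346). SKIL, the corepressor SnoN, was at 0.28 in its brightest probe set (adjusted p = 0.16), it passed there without Ecd siRNA replicate 1 (adjusted p = 0.03; 0.03 to 0.429 over all alternatives), and 1 dimmer probe set rose (0.69, adjusted p = 0.0445 over all probe sets). TGFBI, a matrix protein named for its induction by TGF-beta, read 7827.6, 7417.7 and 7959.8 against 9816.3, 8811.9 and 8117.2, higher on every Ecd siRNA array by less than the threshold needs (0.20, SE 0.08, adjusted p = 0.0922). It passed without Ecd siRNA replicate 3 (0.27, adjusted p = 0.0351; 0.0351 to 0.237 over all alternatives).

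THBS1, the gene of thrombospondin 1, which activates latent TGF-beta and is induced by both pathways, was the 1 TGF-beta target with a lower value. It read 13916.9, 15237.1 and 12786.5 with control siRNA and 11843.5, 12104.1 and 12933.2 after Ecd siRNA, overlapping (-0.18, SE 0.07, adjusted p = 0.108). All 7 of its probe sets were below 0 (-0.55 to -0.17) and 1 fell, from 1104.2, 1182.5 and 938.4 to 704, 689.5 and 786.9 (adjusted p = 0.00869 over all probe sets). The gene passed as a fall with quantile normalization (-0.20, adjusted p = 0.0436), with _s and _x probe sets set aside (-0.55, adjusted p = 0.00583) and without control replicate 3 (-0.24, adjusted p = 0.0444; 0.00583 to 0.341 over all alternatives).

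Over the whole set, 90 of the 106 member probe sets were above the filter, and 16 rose and 12 fell, or 31.1% called against 17% of all 27030 single-symbol probe sets tested (8.36% higher and 8.68% lower). These shares are not matched for signal: most members are bright, and bright genes were called more often (34.1%) than all genes (21.2%). No share for bright probe sets was computed. Of the 26 members with 2 or more tested probe sets, 15 had all of them on the same side of 0, among them CCN1, AXL, AJUBA, TEAD4, TGFB2, LTBP1, PMEPA1, INHBA, SMAD3 and THBS1. In 11 members the probe sets lay on both sides, but no member had both a rising and a falling one. Members whose brightest probe set did not pass while another did were WWTR1, SMAD3 and THBS1, each with a fall, and SMAD6 and SKIL, each with a rise. Probe sets of 1 gene share their RNA and are not replicates.

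**Figure D4:**
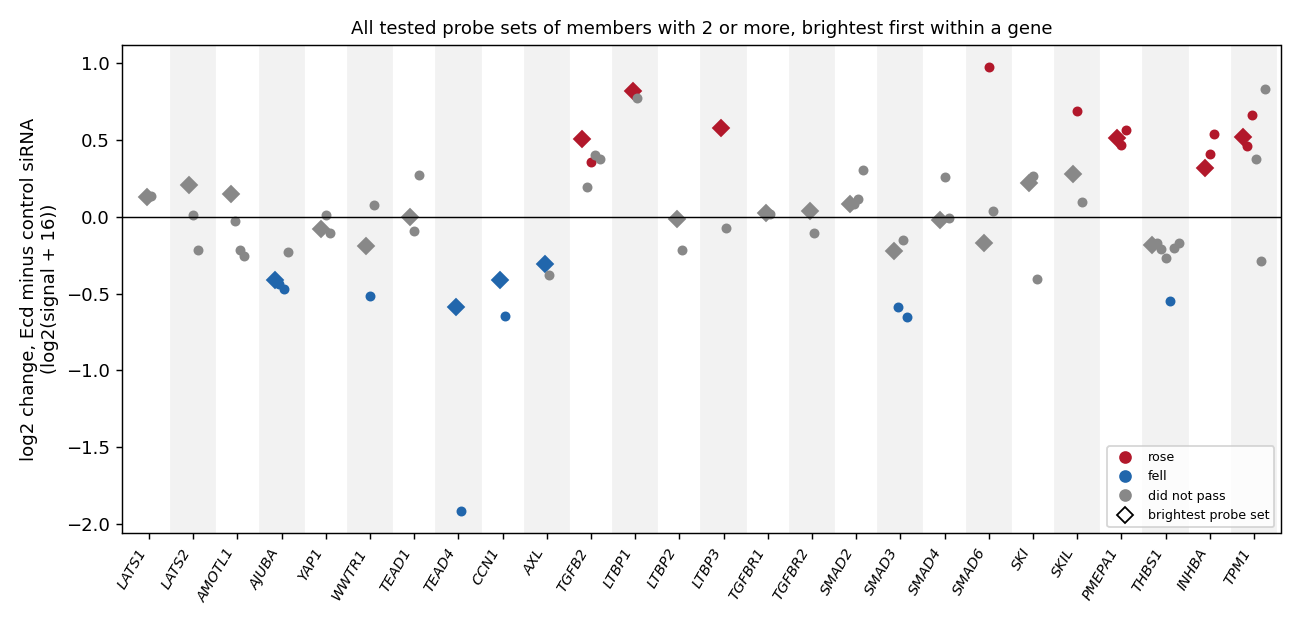
Log2 change (log2(signal + 16), Ecd siRNA minus control siRNA) of every tested probe set of the 26 members with 2 or more, brightest first (diamond) within a gene; red rose, blue fell, grey did not pass, by limma over all 27030 probe sets. TEAD4 has 2 blue points at -0.59 and -1.92, THBS1 and SMAD3 lie wholly below 0, and PMEPA1 and INHBA are red throughout.

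Further genes of the same pathways were read from lists chosen by name with earlier results of these data known, so their counts are no independent support for those of the members. They stand beside the 21.2% of all genes tested (10.1% higher and 11% lower) and the 34.1% of bright genes. Of 29 other TGF-beta target genes tested, 17 rose and 1 fell (62.1% called), 11 were not past the threshold, and the median log2 change was 0.52 against 0.01 over all genes. TAGLN, the smooth muscle protein transgelin, rose from 4300.7 ± 38 to 9138.9 ± 87.1 (SD, n = 3 each; 1.09), CDH2, the N-cadherin gene, rose by 1.53, and the gelatinase genes MMP9 and MMP2 by 1.28 and 0.78. In its brightest probe set with neither _s nor _x in the name TAGLN was at 0.51 and did not pass (adjusted p = 0.184), and MMP2 averaged over its probe sets was at 0.20 (adjusted p = 0.454). Of 22 other TGF-beta components tested, 5 rose and 3 fell (36.4% called, median 0.17). The largest fall was that of FST, the gene of follistatin, which binds and neutralises the activin encoded by INHBA: it read 8320.7, 8388.3 and 8357.9 with control siRNA and 2666.5, 2643.2 and 2341.4 after Ecd siRNA (-1.71, SE 0.07, adjusted p = 2.06e-07). SMURF2, a ubiquitin ligase that limits TGF-beta receptors, fell by 0.66, and SMAD9, a BMP-pathway SMAD, rose by 1.11.

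Other YAP targets went both ways like the members, 6 of the 19 tested rising and 4 falling (52.6% called, median -0.005). IGFBP3, which encodes a carrier of insulin-like growth factors, rose from 1005.5 ± 117.9 to 4058.5 ± 686.5 (SD, n = 3 each; 1.99), MYL9, a myosin light chain gene, rose by 1.13, and NT5E, the ecto-5′-nucleotidase gene, fell by 0.48. With _s and _x probe sets set aside MYL9 was not past the threshold (0.75, adjusted p = 0.174). Of 24 other Hippo components tested, 6 rose and 1 fell (29.2% called, median 0.03). TEAD2 rose by 1.01 on the log2 scale, from 478.7, 494 and 430.5 to 1048.3, 925.3 and 906.2, in contrast to TEAD4, while TEAD1 did not pass. PTPN14, a phosphatase that binds YAP and is on both YAP lists, rose by 0.42, and the atypical cadherin gene FAT1 by 0.33.

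Marker lists of cell types and of proliferation were read as well. Their shares called stand beside 21.2% of all genes tested and 34.1% of bright genes. Of the 15 fibroblast markers, 8 were above the filter. FAP (1.03), FBLN1 (0.76) and COL1A1 (0.52) rose and 0 fell (37.5% called). The summed signal of the list was 6947.2 to 7345.5 with control siRNA and 10623.2 to 12031.8 after Ecd siRNA. That sum rests chiefly on FAP (mean 2609.6 with control siRNA, 5334.2 after Ecd siRNA) and FBLN1 (1486.5 and 2541.2), so it does not speak for the whole list. COL1A2, THY1, PDPN, MFAP5 and DCN were above the filter and did not pass, with Ecd siRNA means of 340.6, 354.9, 989.1, 299 and 232.3. COL1A2, THY1 and MFAP5 lay below 0 (-0.17, -0.32 and -0.11) and PDPN and DCN above it (0.36 and 0.11). The other 7 (COL3A1, COL6A3, LUM, PDGFRA, PDGFRB, POSTN and TCF21) were below the filter, with Ecd siRNA means of 23 for COL3A1 to 93.4 for PDGFRB. COL1A1 and COL1A2 are also on the list of other TGF-beta targets, and DCN is on that of other components. All 10 proliferation markers fell, with a summed signal of 18741.5 to 20810.6 with control siRNA and 2875.3 to 3205.4 after Ecd siRNA. Of 13 tested epithelial markers 4 rose and 1 fell (38.5% called), with sums of 140542.3 to 151264.6 and 148529.2 to 156082.2, and 0 of 2 tested endothelial and leukocyte markers passed (both also had an unadjusted p above 0.05). The part of these groups in the members' changes was not tested.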

How the data were processed

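RNA of 6 cultures of 76N cells was measured on 6 Affymetrix arrays. For each probe set the authors deposited a linear intensity on every array, made with MAS5, per the submitters' processing notes; the MAS5 version, the scaling target and detection calls are not given in the sources used. The mean signal between percentiles 2 and 98 was 499.6 to 499.8 on every array, which hides any change common to all transcripts. Probe sets (54675, of which 1801 with several symbols and 62 controls were left out of the gene tests) were named from the GEO platform annotation. Signals were not rescaled; log2(signal + 16) was tested in limma 3.58.1 (R 4.3.3; lmFit and eBayes with an intensity trend, no covariates), over genes and, separately, over all single-symbol probe sets above the filter. The fit was also run on simulated data with independent noise and far fewer changed genes than were called here. Its outcome is not reported here and lends no support to the calls. The number of arrays limits the precision, and p-values reflect only how these cultures varied. With no scan dates in the sources used, batches were not checked.

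All 35 members are named; of each other list, up to 4 genes past the threshold with the smallest adjusted p could be named, and genes named outside this rule (unpassed or dim markers among them) were chosen after their values were seen. Members, role groups, lists and motifs were chosen with earlier results of these data known. Alternatives were pseudocounts of 1 and 64, quantile normalization, centring on the median, no filter or the upper 40%, the mean of probe sets, probe sets without _s or _x names, leaving out each array, and a block for replicate number.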

Additional observations from a re-analysis of the deposited data

How the results depend on the processing

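Of the 12 called members, 6 kept direction and call in all 15 alternatives (CCN1, CCN2, AJUBA, TEAD4, TGFB2 and LTBP1); AXL, SKI, PMEPA1, INHBA and TPM1 lost the call in at least 1, and LTBP3 reversed to -0.086 with the mean of probe sets. The mean of probe sets takes in those under the filter. For LTBP3 that probe set read 126.3, 61.3 and 86.5 with control siRNA and 49.6, 49.8 and 37.4 after Ecd siRNA. Why its probe sets differ was not tested. The mean of probe sets also gave 2 rises among TGF-beta components, not 4. It took LATS2 to -0.008, AMOTL1 to -0.087, TEAD1 to 0.06, TGFB1 to -0.42, TGFBR2 to -0.034, SMAD4 to 0.23 and SMAD6 to 0.22, none past the threshold. Among TGF-beta targets there was 1 fall, that of THBS1, with quantile normalization, with _s and _x probe sets set aside, and without control replicate 3. Quantile normalization put TGFBR2 at -0.004, centring on the median put TEAD1 at 0.012, and setting aside _s and _x probe sets put SMAD4 at 0.26. With 1 array left out, rises among all members ranged from 5 (without control replicate 1) to 8, falls among YAP targets from 1 (without control replicate 1 or 2) to 2, rises among TGF-beta targets from 1 (without control replicate 1) to 3 and falls among them from 0 to 1. Of the members that did not pass, these changed sign when 1 array was left out: AMOTL2 (-0.061 to 0.431), TEAD1 (-0.025 to 0.027), TGFB1 (-0.063 to 0.186), LTBP2 (-0.098 to 0.044), TGFBR1 (-0.044 to 0.084), TGFBR2 (-0.02 to 0.072), SMAD4 (-0.055 to 0.006) and SMAD6 (-0.434 to 0.006). Same-numbered arrays of the 2 groups had deviations from their group means correlated at -0.003, 0.08 and 0.16, and not every array correlated best with its own number, so the numbers were not treated as pairs; with the replicate block 1585 genes rose and 1691 fell in all, SKIL passed (0.28, adjusted p = 0.0411) and no other member's call changed. LTBP3, TGFB1, TGFBR3 and SMAD6 were below the filter in 1 or 2 alternatives and have no value there. Dim probe sets, such as those of TGFBR3, SMAD6 and ANKRD1, limit what can be read.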
